A study of Mus musculus with 36 samples.

Results

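The methionine cycle and the transsulfuration branch that leaves it were followed through 10 genes: Mtr, Bhmt, Bhmt2, Mat1a, Mat2a, Gnmt, Pemt, Ahcy, Cbs and Cth. Members were all probes, other than controls, whose gene name in the array files equals 1 of these symbols, which gave 17 probes of 56605 and 10 genes of 37325. All 10 genes passed the filter on dim probes that left 24251 genes for testing. RNA had been taken from the livers of 36 male C57Bl/6J mice and read on 36 one-colour arrays, 6 for each of 6 groups. AAKO mice have no ATGL, the lipase that starts triglyceride breakdown (gene Pnpla2), in their white adipose tissue, and CTRL mice serve as controls. The labels used here do not name the promoter that drives the deletion. Mice of each genotype were fed, or had been fasted (24 h), or were fed and received CL316243, which activates the beta 3 adrenergic receptor of adipocytes. The compound was gavaged once, at 3 mg/kg in 0.5% carboxymethyl cellulose, at Zeitgeber time 10, and livers of all groups were collected at Zeitgeber time 16. The fed groups carry another experiment label (2) than the fasted and CL316243 groups (1), so in each comparison with fed mice condition and experiment cannot be told apart. A gavage is described for the CL316243 groups alone.

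The methionine cycle turns methionine into S-adenosylmethionine (SAM), the methyl donor of the cell, through methionine adenosyltransferases. Methyltransferases use SAM and leave S-adenosylhomocysteine, which is split to homocysteine, and homocysteine is either methylated back to methionine, with a methyl group from folate or from betaine, or drawn off through cystathionine to cysteine. The liver carries most of this traffic in the body and is the main site of betaine-dependent remethylation.

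Values are on a log2 scale on which 0 is the brightness of the 75th percentile of the same array, and levels of different probes are not set against each other. Between genotypes or conditions, a difference of 1 is a doubling of signal. A difference is called where the limma adjusted p, taken over all 24251 genes, is under 0.05, and errors beside differences are standard errors of that fit. On the first principal component (41.9% of the variance of the tested genes), replicate 2 of CTRL fasted stood apart at 81.3 against 16.8 to 29 for its 5 group mates. Results that rest on the CTRL fasted group were therefore also computed without it. All 8 hepatocyte markers examined were well above background in every group. Their mean log2 level ran from 7.65 to 7.87 in CTRL CL316243 and from 8.07 to 8.33 in AAKO CL316243, with no overlap, and 4 of the 8 were called higher in AAKO there. Of 7 neutrophil markers, 4 were called higher in AAKO fasted than in CTRL fasted (median difference 2.15). Their summed signal ran from 0.468 to 54.9 times the 75th percentile in CTRL fasted, where Ngp and Ltf were dim, and from 6.15 to 85.6 in AAKO fasted. The mean log2 level of 8 periportal hepatocyte markers also did not overlap between the genotypes, at 5.89 to 6.28 in CTRL and 6.29 to 6.40 in AAKO fasted livers and at 5.73 to 5.86 and 6.00 to 6.24 after CL316243. Of the 8, 3 were called higher and 2 lower in AAKO fasted livers, and 3 higher and 1 lower after CL316243. The summed signal of 7 stellate cell markers ran from 59.7 to 73.4 in CTRL fasted and from 75.4 to 103 in AAKO fasted livers. Their mean log2 levels overlapped, at -0.15 to 0.13 and -0.57 to 0.59. Of the 7, 2 were called higher and 0 lower in AAKO fasted livers (median difference -0.20). Against fed mice, CL316243 called 5 of 7 Kupffer cell markers lower in CTRL and 6 in AAKO, with 0 higher. Of 6 endothelial cell markers tested, 5 and 3 were lower there, with 0 higher. In AAKO, fasting against feeding called 6 of 8 periportal markers higher and 2 lower, and 1 of 8 pericentral markers higher and 5 lower. In fasted against CL316243-treated livers, 4 of the 6 endothelial markers were called higher in both genotypes. The part of these markers in the results below was not tested. In whole liver, fewer cells of a type and less RNA per cell cannot be told apart.

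Between AAKO and CTRL livers none of the 10 genes had a called difference in fed mice, and most had one in fasted mice. In fasted AAKO livers Cth, which makes cysteine, and Mat2a, a SAM-producing enzyme, were higher, while Bhmt2, a remethylating enzyme, and Pemt, a phospholipid methyltransferase, were lower. After CL316243 the Mat2a difference had the opposite sign, and Mat1a, the SAM-producing enzyme of adult liver, was higher in AAKO. The fed comparison called 0 of the 10 with limma, beside 0.0783% of all genes tested (0.0412% higher and 0.0371% lower), and 1 member reached an unadjusted p under 0.05. The fasted comparison called 7 of the 10 (4 higher and 3 lower in AAKO), where 49.3% of all genes were called (21.3% higher and 28% lower). The CL316243 comparison called 4 of the 10 (2 higher and 2 lower) against 24.7% of all genes (13.4% higher and 11.3% lower). The median difference of the 10 was 0.10 in fasted mice and 0.11 after CL316243, where the medians over all genes tested were -0.04 and 0.03. Without replicate 2 of CTRL fasted, 7 of the 10 were still called in fasted mice.

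**Figure D1:**
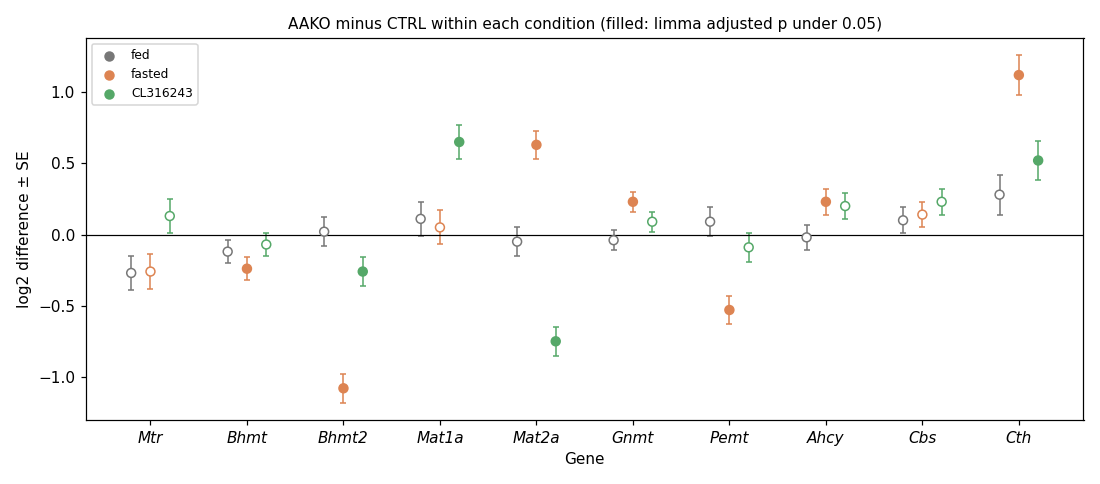
Log2 difference between AAKO and CTRL (vertical axis, ± SE of the fit) for each of the 10 genes in fed, fasted and CL316243-treated mice, with filled points where the limma adjusted p is under 0.05. Mat2a lies at 0.63 in fasted mice and at -0.75 after CL316243, and no point of the fed mice is filled.

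Whether the genotype difference itself depended on the condition was tested with interaction contrasts, in which an effect of the experiment shared by both genotypes cancels. From fed to fasted mice the difference changed for 5 of the 10 genes (33.9% of all genes, 14.5% upward and 19.4% downward): it moved upward for Cth, Mat2a and Gnmt and downward for Bhmt2 and Pemt. From fed to CL316243-treated mice it changed for 2 of the 10, Mat1a upward and Mat2a downward (10.9% of all genes, 6.34% upward and 4.52% downward). Between the fasted and the CL316243 condition it differed for 5 of the 10 (32.3% of all genes, 12.7% higher and 19.6% lower). There it was higher in fasted mice for Mat2a and Cth and lower for Bhmt2, Mat1a and Pemt. The split of all called genes into higher and lower depended on the scaling. With the authors' value table the share that was higher went from 52.6% to 66.7% for the genotype in fed mice and from 54.3% to 42.3% for the genotype after CL316243. For the interaction with CL316243 it went from 58.4% to 44.1%. For the fasted minus the CL316243 genotype difference it went from 39.3% to 54.9%.

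Homocysteine is remethylated by 3 of the genes. Mtr encodes methionine synthase, which takes the methyl group from folate. Bhmt and Bhmt2 encode methyltransferases that use betaine (Bhmt) or S-methylmethionine (Bhmt2). Bhmt2 was read by 1 probe on chromosome 13 (94426379 to 94426438 on mm9). In fed mice it ran from 5.21 to 5.67 (median 5.57) in CTRL and from 5.27 to 5.64 (median 5.55) in AAKO. In fasted mice it ran from 5.39 to 5.87 (median 5.61) in CTRL and from 4.37 to 4.70 (median 4.57) in AAKO. After CL316243 it ran from 5.00 to 5.43 (median 5.15) in CTRL and from 4.69 to 5.18 (median 4.87) in AAKO. All 6 AAKO fasted livers lay below every CTRL fasted liver, and the genotypes overlapped in the other conditions. In fasted mice the genotypes did not overlap, in either direction, for 21.3% of all genes. The fasted genotype difference was -1.08 ± 0.10, which is 2.11-fold lower in AAKO (adjusted p = 1.23e-10), and -1.13 without replicate 2 of CTRL fasted. It was -1.05 in wash batch 1 alone and -1.11 in wash batch 2 alone, the wash batches being a label that divides the arrays of every group. Fasting gave no called change of Bhmt2 in CTRL mice (0.14 ± 0.10, adjusted p = 0.277), though quantile normalization (0.26, adjusted p = 0.0235) and the authors' table (0.23, adjusted p = 0.0378) called it a rise. Fasting lowered Bhmt2 in AAKO mice by a log2 difference of -0.96 ± 0.10 (adjusted p = 2.81e-10). The interaction of genotype with fasting was -1.10 ± 0.14 (adjusted p = 2.83e-07). The smaller CL316243 genotype difference of -0.26 ± 0.10 (adjusted p = 0.0479) lost its call when any 1 of 20 arrays was left out, with adjusted p then between 0.0501 and 0.141, and was -0.44 in wash batch 1 and 0.02 in wash batch 2.

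Bhmt was read by 3 probes on chromosome 13, and their readings differed. Probe 1, the brightest of them and the one that stands for the gene in all counts here (94386862 to 94386921 on mm9), lay between 8.53 and 9.35 on all 36 arrays. Its fasted values ran from 9.06 to 9.29 (median 9.17) in CTRL and from 8.75 to 9.07 (median 8.95) in AAKO, a difference of -0.24 ± 0.08 (adjusted p = 0.0106) between overlapping groups. Fasting raised it by 0.26 ± 0.08 in CTRL (adjusted p = 0.00724), and the change in AAKO of 0.14 ± 0.08 was not called (adjusted p = 0.113), except with normexp (0.17, adjusted p = 0.0264) and the authors' table (0.24, adjusted p = 0.00149). In wash batches 1 and 2 alone the fasted genotype difference was -0.31 and -0.17 and was not called. The fasting change in CTRL was 0.30 and 0.21 there and was not called either. Probe 2 showed far wider differences in the same livers. It ran from 6.63 to 7.20 (median 7.02) in CTRL fed and from 8.08 to 8.66 (median 8.32) in CTRL fasted. It ran from 6.27 to 6.79 (median 6.58) in AAKO fed and from 6.60 to 7.35 (median 7.01) in AAKO fasted. All 6 CTRL fasted arrays lay above every array of the other 5 groups on this probe. On the brightest probe of each gene, CTRL fasted and AAKO fasted livers did not overlap, in either direction, for 21.3% of all genes. For CTRL fasted and CTRL fed livers that share was 22.6%, and for CTRL fasted and CTRL CL316243 livers 17.7%. The share of genes with CTRL fasted apart from all 5 other groups was not counted. In a fit of all 36550 tested probes, fasting raised probe 2 by 1.41 ± 0.12 in CTRL (adjusted p = 4.07e-11) and by 0.50 ± 0.12 in AAKO (adjusted p = 0.000454). Its fasted genotype difference was -1.33 ± 0.12 (adjusted p = 1.24e-10) and its interaction with fasting was -0.91 ± 0.17 (adjusted p = 8.85e-05). Probe 3, filed under another transcript, rose with fasting by 1.57 ± 0.32 in both genotypes (adjusted p = 0.00016 in CTRL and 7.32e-05 in AAKO). It fell with CL316243 by 1.30 in CTRL and 1.37 in AAKO (adjusted p = 0.00328 and 0.00138), while the other probes moved by at most 0.34 in that comparison.

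**Figure D2:**
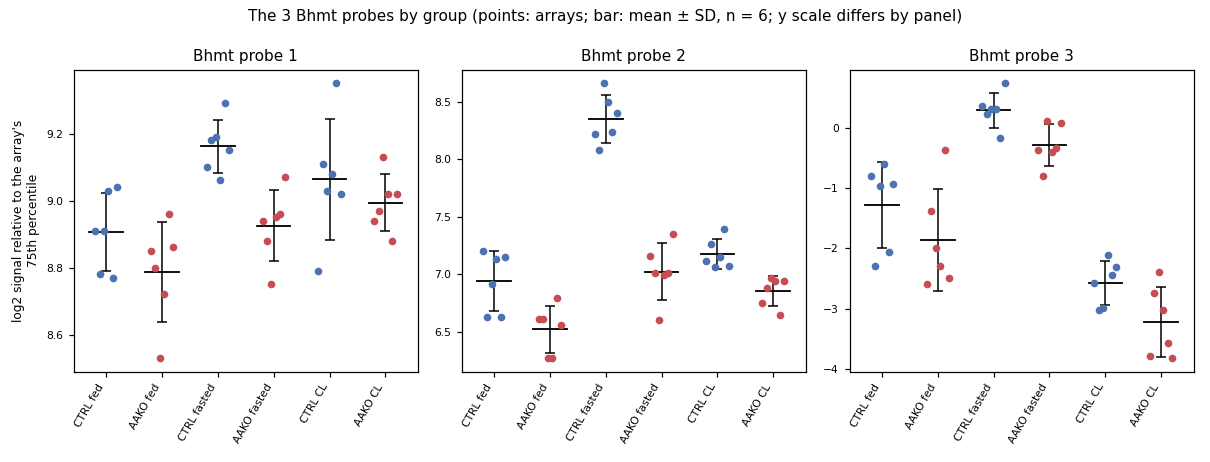
Log2 signal scaled to each array's 75th percentile (vertical axes, range differs by panel) of the 3 Bhmt probes in the 6 groups, with each point an array and bars showing mean ± SD (n = 6). On probe 2 the CTRL fasted arrays, between 8.08 and 8.66, stand above all other arrays, while on probe 1 all groups lie between 8.53 and 9.35.

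The sequence of probe 2 is shown because the size of the Bhmt change depends on it: its last 3 bases, in capitals, spell a stop codon. The files place it at 94386836 to 94386840 on mm9, a span of 5 bases for a 60-base probe, just beside probe 1. Which of the readings follows the whole Bhmt transcript was not tested.
Bhmt probe 2: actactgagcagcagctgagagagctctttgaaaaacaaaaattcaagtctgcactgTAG

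Bhmt and Bhmt2 are neighbours on chromosome 13, and the 250 bases before their RefSeq starts are given to set the related genes side by side (build GRCm38.p6, minus strand, Bhmt at chr13:93637759-93638008 and Bhmt2 at chr13:93674303-93674552). Capitals mark matches, on this or the opposite strand, to AGGTCA, a half-site of nuclear receptors, and to the CCAAT box. AGGTCA was added to the search after the members' values had been seen.
Bhmt promoter: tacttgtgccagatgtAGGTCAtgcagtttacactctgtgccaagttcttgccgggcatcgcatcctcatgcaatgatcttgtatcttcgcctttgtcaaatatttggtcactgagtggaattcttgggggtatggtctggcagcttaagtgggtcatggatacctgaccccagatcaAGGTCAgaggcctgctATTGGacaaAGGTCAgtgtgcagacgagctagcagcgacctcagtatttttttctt
Bhmt2 promoter: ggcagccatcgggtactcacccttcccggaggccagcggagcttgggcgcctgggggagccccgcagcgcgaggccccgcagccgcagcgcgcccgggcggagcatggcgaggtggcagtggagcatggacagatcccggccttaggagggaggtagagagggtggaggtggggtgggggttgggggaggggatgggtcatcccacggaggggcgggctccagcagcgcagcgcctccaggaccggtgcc
AGGTCA was found at 3 places in the Bhmt window, at 234 to 229, 72 to 67 and 47 to 42 bases before the start, and at none in the Bhmt2 window. It occurs in 14.0% of all 32851 promoter windows of that length, and CCAAT in 33.8%. The Bhmt2 window was 74% G and C with 20 CG pairs, and the Bhmt window 48% with 5, where the median of all windows was 52.4% with 6. Among the members, 8 of 10 had a window in that table. Gnmt and Ahcy held 1 AGGTCA each, and Cbs held the only CACGTG, the E-box, which occurs in 6.02% of windows. A match describes letters and not binding.

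Mtr was dimmer than its array's 75th percentile on every array, and its 3 probes gave no shared direction for fasting against feeding. On the brightest probe, fed values ran from -2.57 to -2.30 (median -2.47) in CTRL and from -2.82 to -2.57 (median -2.71) in AAKO. These ranges met without overlapping, as they did for 0.656% of all genes, and the difference of -0.27 ± 0.12 was not called (adjusted p = 0.69). Fasting lowered the brightest probe by 0.32 in CTRL and 0.31 in AAKO (adjusted p = 0.0261 and 0.0191). The second probe changed by -0.26 and -0.07 and the third by 0.22 and 0.46. The authors' table called neither change (-0.17 and -0.15, adjusted p = 0.106 and 0.108). In CTRL the call was lost without replicate 2 or 5 of CTRL fed or replicate 1 of CTRL fasted (adjusted p from 0.0553 to 0.0642). In AAKO it was lost without replicate 3 or 6 of AAKO fasted (0.0654 to 0.0695).

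SAM is made by the products of Mat1a, the form typical of mature hepatocytes, and Mat2a, the form found in most other tissues and in growing liver. Mat1a was read by 1 probe on chromosome 14 (41937140 to 41937199 on mm9). In fed mice it ran from 5.74 to 6.16 (median 5.93) in CTRL and from 5.81 to 6.29 (median 6.11) in AAKO. In fasted mice it ran from 7.74 to 7.95 (median 7.85) in CTRL and from 7.75 to 8.02 (median 7.94) in AAKO. After CL316243 it ran from 5.92 to 6.49 (median 6.04) in CTRL and from 6.25 to 7.21 (median 6.77) in AAKO. Every fasted liver of either genotype lay above every fed or CL316243-treated liver, and the genotypes overlapped in each condition. Fasted and fed livers did not overlap, in either direction, for 22.6% of all genes in CTRL and 42.6% in AAKO. For fasted and CL316243-treated livers these shares were 17.7% and 37.4%. Fasting raised Mat1a by 1.91 ± 0.12 in CTRL, or 3.75-fold (adjusted p = 4.41e-14), and by 1.85 ± 0.12 in AAKO, or 3.61-fold (adjusted p = 1.01e-14). The interaction with fasting was -0.06 ± 0.16 (adjusted p = 0.83). CL316243 did not give a called change in CTRL (0.16 ± 0.12, adjusted p = 0.36) and raised Mat1a in AAKO by 0.69 ± 0.12 (adjusted p = 2.79e-05). The genotype difference after CL316243 was 0.65 ± 0.12 (1.56-fold, adjusted p = 0.000102), with 0.74 in wash batch 1 and 0.47 in wash batch 2 (adjusted p = 0.00227 and 0.192). Its interaction with CL316243, 0.53 ± 0.17 (adjusted p = 0.0324), lost its call when any 1 of 10 arrays was left out, with values from 0.44 to 0.52 and adjusted p from 0.0504 to 0.0695. Quantile normalization (0.47, adjusted p = 0.0948) and the authors' table (0.49, adjusted p = 0.0611) did not call it either.

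Mat2a was read by 3 probes on chromosome 6, of which the brightest lies at 72382856 to 72382915 on mm9. In fed mice it ran from 4.39 to 4.65 (median 4.47) in CTRL and from 4.21 to 4.75 (median 4.49) in AAKO. In fasted mice it ran from 4.15 to 4.89 (median 4.54) in CTRL and from 5.00 to 5.35 (median 5.12) in AAKO. After CL316243 it ran from 4.56 to 4.97 (median 4.85) in CTRL and from 3.88 to 4.33 (median 4.07) in AAKO. AAKO lay wholly above CTRL in fasted mice and wholly below it after CL316243, which gave AAKO mice both the highest and the lowest group mean of the 6. The genotypes did not overlap, in either direction, for 21.3% of all genes in fasted mice and 11.5% after CL316243. The genotype difference was 0.63 ± 0.10 in fasted mice (1.54-fold higher, adjusted p = 4.66e-06) and -0.75 ± 0.10 after CL316243 (1.68-fold lower, adjusted p = 1.65e-06). The fasted difference was 0.69 without replicate 2 of CTRL fasted. Within wash batches 1 and 2 the fasted difference was 0.77 and 0.48 and the CL316243 difference -0.79 and -0.67, all with adjusted p under the threshold. The change of the genotype difference between these conditions was 1.37 ± 0.14 (adjusted p = 2.31e-08). In AAKO mice, fasting raised Mat2a by 0.71 ± 0.10 over fed mice (adjusted p = 2.64e-07) and CL316243 lowered it by 0.37 (adjusted p = 0.00527). In CTRL mice fasting gave no called change (0.04 ± 0.10, adjusted p = 0.801) and CL316243 raised it by 0.33 ± 0.10 (adjusted p = 0.0156).

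The second Mat2a probe, under the same RefSeq transcript (72383800 to 72383859), gave 0.73 ± 0.11 in fasted mice and -0.65 ± 0.11 after CL316243. It did not call the CL316243 change in CTRL (0.26 ± 0.11, adjusted p = 0.0863). The third probe, filed under the clone AK050582 (72388801 to 72388860), gave 0.67 ± 0.14 in fasted mice and 0.21 ± 0.15 after CL316243, which was not called (adjusted p = 0.316). The opposite sign after CL316243 was thus read by 2 of the 3 probes. The change of the genotype difference between fasted and CL316243-treated mice was 1.38 ± 0.15 on the second probe (adjusted p = 7.39e-08). On the third probe it was 0.46 ± 0.21 and not called (adjusted p = 0.0864). The lowest group mean of the third probe was that of CTRL CL316243 (-1.94), with AAKO CL316243 at -1.74. With the mean of the probes the changes with CL316243 were not called in CTRL (0.10) or AAKO (-0.24), nor was the interaction with CL316243 (-0.34, against -0.70 on the brightest probe). The 250 bases before the Mat2a start (chr6:72439557-72439806, GRCm38.p6, minus strand) are given because Mat2a had called genotype differences of opposite sign in fasted and CL316243-treated mice. Capitals mark TATAAA, searched on both strands, at 32 to 27 bases before the start, found in 12.4% of all windows, and a CCAAT match. The window was 67.6% G and C with 29 CG pairs. The Mat1a start was not among the windows used.
Mat2a promoter: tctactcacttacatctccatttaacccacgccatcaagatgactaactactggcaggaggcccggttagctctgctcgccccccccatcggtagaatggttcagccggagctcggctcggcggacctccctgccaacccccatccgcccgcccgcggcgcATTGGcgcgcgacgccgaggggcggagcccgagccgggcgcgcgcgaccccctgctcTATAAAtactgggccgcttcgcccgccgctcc

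**Figure D3:**
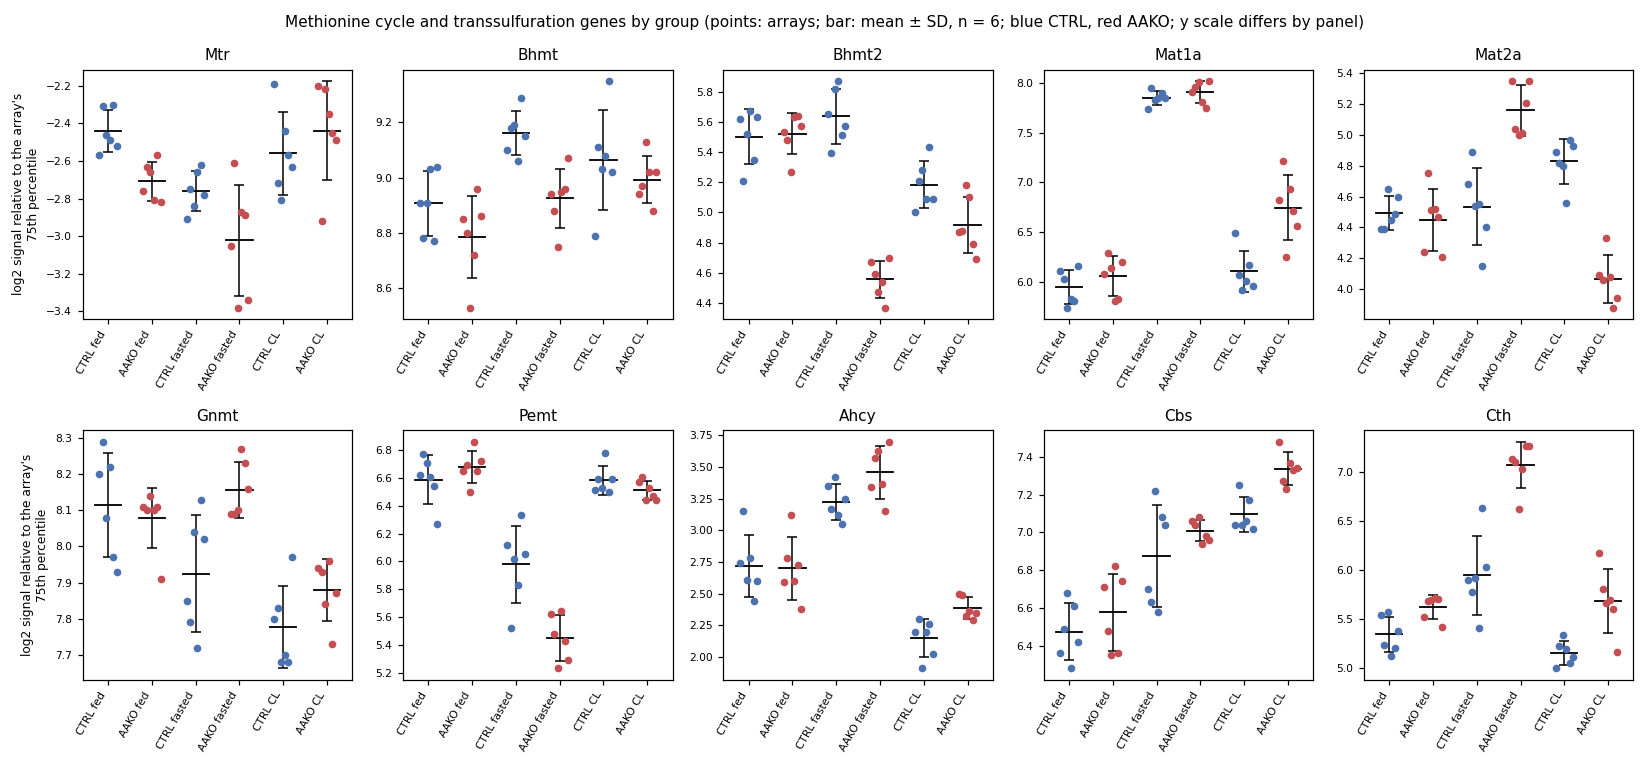
Log2 signal scaled to each array's 75th percentile (vertical axes, range differs by panel) of the brightest probe of each of the 10 genes in the 6 groups, ordered by role from remethylation to transsulfuration, with each point an array and bars showing mean ± SD (n = 6). Mat1a separates fasted from all other livers in both genotypes, Bhmt2 is lowest in AAKO fasted (4.37 to 4.70), and Mat2a is highest in AAKO fasted and lowest in AAKO CL316243.

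Among the enzymes that use SAM, Gnmt encodes glycine N-methyltransferase, which disposes of excess SAM in liver, and Pemt encodes the enzyme that makes phosphatidylcholine by methylation. Pemt was read by 2 probes on chromosome 11, the brighter at 59784123 to 59784182 on mm9. In fed mice it ran from 6.27 to 6.77 (median 6.62) in CTRL and from 6.50 to 6.86 (median 6.67) in AAKO. In fasted mice it ran from 5.52 to 6.33 (median 6.03) in CTRL and from 5.23 to 5.64 (median 5.46) in AAKO. After CL316243 it ran from 6.50 to 6.78 (median 6.56) in CTRL and from 6.44 to 6.61 (median 6.50) in AAKO. The fasted groups were the low ones in both genotypes, and the lowest CTRL fasted liver, replicate 2, lay within the AAKO fasted range. Fasting lowered Pemt by 0.61 in CTRL and by 1.23 in AAKO (adjusted p = 4e-06 and 1.16e-12), and the fasted genotype difference was -0.53 ± 0.10 (adjusted p = 2.96e-05). Without replicate 2 of CTRL fasted that difference was -0.61 ± 0.09 and the interaction with fasting was -0.70, against -0.62 ± 0.14 with it (adjusted p = 0.000609). The fasted genotype difference was -0.80 in wash batch 1 and -0.26 in wash batch 2, where it was not called (adjusted p = 0.163). The second Pemt probe gave -0.61 ± 0.10 for the same comparison, and the genotype difference after CL316243 was not called on either. For CL316243 against feeding in AAKO, the brighter probe gave -0.18 and was not called (adjusted p = 0.158). The second probe was called lower there (-0.37, adjusted p = 0.00558), as was the mean of the probes (-0.28, adjusted p = 0.0298). The contrast of the fasted and CL316243 genotype differences, -0.44 (adjusted p = 0.0132), was -0.33 with quantile normalization, -0.31 with the authors' table and -0.19 in wash batch 2, and was called in none of these.

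Gnmt, read by 1 probe on chromosome 17, stayed between 7.68 and 8.29 on all arrays. In fasted mice it ran from 7.72 to 8.13 (median 7.94) in CTRL and from 8.09 to 8.27 (median 8.13) in AAKO, a difference of 0.23 ± 0.07 (adjusted p = 0.00609) between groups that overlapped. That difference was 0.21 without replicate 2 of CTRL fasted, 0.06 in wash batch 1 alone and 0.41 in wash batch 2 alone. CL316243 lowered Gnmt by 0.34 in CTRL and 0.21 in AAKO (adjusted p = 0.000555 and 0.0204), and without replicate 5 of AAKO CL316243 the second was -0.18 (adjusted p = 0.0609), as it was -0.19 with quantile normalization (adjusted p = 0.0751). The fall with fasting in CTRL, -0.19 ± 0.07, lost its call without any 1 of 6 arrays, among them replicate 2 of CTRL fasted, and with quantile normalization (-0.15) or the authors' table (-0.17). The interaction with fasting, 0.27 ± 0.10 (adjusted p = 0.034), lost it without any 1 of 9 arrays (adjusted p from 0.0518 to 0.0727).

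Ahcy encodes the hydrolase that splits S-adenosylhomocysteine, the product that inhibits methyltransferases. It was read by 1 probe on chromosome 2 (154891321 to 154891380 on mm9). Fed values ran from 2.44 to 3.15 (median 2.67) in CTRL and from 2.38 to 3.12 (median 2.67) in AAKO. Fasted values ran from 3.05 to 3.42 (median 3.21) in CTRL and from 3.15 to 3.70 (median 3.47) in AAKO. After CL316243 they ran from 1.91 to 2.30 (median 2.20) in CTRL and from 2.29 to 2.50 (median 2.35) in AAKO. Ahcy followed the condition more than the genotype, highest in fasted and lowest in CL316243-treated livers. Against fed mice it rose with fasting by 0.51 ± 0.09 in CTRL and 0.76 ± 0.09 in AAKO, and fell with CL316243 by 0.57 and 0.35 (adjusted p = 4.29e-05, 2.03e-08, 4.02e-05 and 0.00514). Between the fasted and CL316243 groups, which share an experiment label, it was 2.11-fold higher in fasted CTRL and 2.15-fold higher in fasted AAKO livers, without overlap. Of all genes, 17.7% in CTRL and 37.4% in AAKO had no overlap there, in either direction. The fasted genotype difference of 0.23 ± 0.09 (adjusted p = 0.0402) was lost without any 1 of 8 arrays (adjusted p from 0.0524 to 0.128).

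Transsulfuration starts with Cbs, which joins homocysteine to serine as cystathionine, and is completed by Cth, which releases cysteine. Cth was read by 1 probe on chromosome 3 (157557667 to 157557726 on mm9). In fed mice it ran from 5.13 to 5.57 (median 5.31) in CTRL and from 5.42 to 5.72 (median 5.69) in AAKO. In fasted mice it ran from 5.41 to 6.63 (median 5.91) in CTRL and from 6.62 to 7.26 (median 7.11) in AAKO. After CL316243 it ran from 5.00 to 5.34 (median 5.16) in CTRL and from 5.17 to 6.17 (median 5.68) in AAKO. AAKO fasted livers were the highest of all groups and met the CTRL fasted range at a single array of each, 6.63 in CTRL replicate 5 and 6.62 in AAKO replicate 3. The fasted genotype difference was 1.12 ± 0.14, or 2.18-fold (adjusted p = 1.07e-07), and 1.10 without replicate 2 of CTRL fasted. In wash batches 1 and 2 it was 0.80 and 1.45 (adjusted p = 0.0137 and 1.67e-05). After CL316243 the difference was 0.52 ± 0.14 (1.43-fold, adjusted p = 0.00819), and neither wash batch alone called it (0.53 and 0.52). Fasting raised Cth by 0.60 ± 0.14 in CTRL and by 1.44 ± 0.14 in AAKO (adjusted p = 0.000956 and 2.42e-10), with an interaction of 0.84 ± 0.20 (adjusted p = 0.00157) that was 0.40 in wash batch 1 and 1.28 in wash batch 2. The contrast of the genotype differences in fasted and CL316243-treated mice was 0.61 ± 0.20 (adjusted p = 0.0214), and 0.50 without replicate 4 of CTRL fasted (adjusted p = 0.0541). That contrast was 0.27 in wash batch 1 alone and 0.92 in wash batch 2 alone (adjusted p = 0.601 and 0.0132). A limma fit of only the groups compared gave 0.61 and did not call it (adjusted p = 0.0525).

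Cbs, read by 1 probe on chromosome 17 (31749593 to 31749652 on mm9), differed by condition, with no called genotype difference. Fed values ran from 6.28 to 6.68 (median 6.45) in CTRL and from 6.35 to 6.82 (median 6.59) in AAKO. Fasted values ran from 6.58 to 7.22 (median 6.87) in CTRL and from 6.94 to 7.08 (median 7.01) in AAKO. After CL316243 they ran from 7.02 to 7.25 (median 7.05) in CTRL and from 7.23 to 7.48 (median 7.34) in AAKO. In both genotypes the CL316243 groups lay wholly above the fed groups. Of all genes, 12.3% in CTRL and 15.1% in AAKO had no overlap there, in either direction. Against fed mice CL316243 raised Cbs by 0.63 ± 0.09 in CTRL and 0.75 ± 0.09 in AAKO, and fasting raised it by 0.40 ± 0.09 and 0.44 ± 0.09 (adjusted p = 8.5e-06, 2.31e-07, 0.000548 and 0.000118). The genotype differences of 0.14 ± 0.09 in fasted mice and 0.23 ± 0.09 after CL316243 had adjusted p = 0.23 and 0.073. Wash batch 2 alone called the fasted difference (0.36, adjusted p = 0.0103), and wash batch 1 alone gave -0.09. A limma fit of only the groups compared called the CL316243 difference (0.23, adjusted p = 0.0298).

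Across conditions, fasting against feeding called 8 of the 10 in CTRL mice (43.3% of all genes, 20.9% higher and 22.4% lower) and 8 of the 10 in AAKO mice (63.5%, 27.8% higher and 35.7% lower), in each case 5 higher and 3 lower. Mat1a, Ahcy, Cbs and Cth were called higher and Pemt and Mtr lower in both genotypes, Bhmt was called higher and Gnmt lower in CTRL, and Mat2a was called higher and Bhmt2 lower in AAKO. CL316243 against feeding called 5 of the 10 in CTRL mice (23.3% of all genes, 10.4% higher and 12.8% lower) and 7 in AAKO mice (31.4%, 15.7% in each direction), with Cbs higher and Bhmt2, Gnmt and Ahcy lower in both. In CTRL mice Bhmt2 fell by 0.32 and in AAKO mice by 0.60 (adjusted p = 0.0169 and 1.62e-05), and in CTRL the fall was -0.20 and not called with quantile normalization (adjusted p = 0.129). Bhmt rose by 0.21 in AAKO (adjusted p = 0.0406), a call lost without any 1 of 6 arrays (adjusted p from 0.0524 to 0.149), with quantile normalization (0.15) and with the authors' table (0.10).

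Fasting and CL316243, which lie within 1 experiment label, differed for 6 of the 10 genes in CTRL mice (36.8% of all genes, 19.2% higher and 17.6% lower) and for 9 in AAKO mice (59.9%, 26.2% higher and 33.8% lower). In AAKO mice the share of called genes that were higher went from 43.6% to 58.1% with the authors' table and to 31.4% with normexp background correction. In both genotypes fasted livers had more Mat1a, Ahcy and Cth and less Pemt. Mat1a was higher by 1.75 ± 0.12 in CTRL and by 1.16 ± 0.12 in AAKO, and this gap narrowed with the genotype (interaction -0.59 ± 0.17, adjusted p = 0.00609). That interaction was -0.61 in wash batch 1 alone (adjusted p = 0.0374) and -0.49 in wash batch 2 alone, where it was not called (adjusted p = 0.25). Mat2a was called with opposite signs: -0.29 ± 0.10 in CTRL mice (adjusted p = 0.0206) and 1.08 ± 0.10 in AAKO mice (adjusted p = 9.16e-11). The CTRL value was -0.22 without replicate 5 of CTRL fasted and -0.25 without replicate 5 of CTRL CL316243 (adjusted p = 0.074 and 0.0595), and -0.36 without replicate 2 of CTRL fasted. The second Mat2a probe gave -0.30 in CTRL (adjusted p = 0.0279), but the third was called higher there (0.53, adjusted p = 0.00421), the mean of the probes was -0.02, and the authors' table gave -0.20 (adjusted p = 0.112). On all 3 probes Mat2a was higher in fasted AAKO livers. Bhmt2 also had called differences of opposite sign, 0.45 ± 0.10 for CTRL mice and -0.37 ± 0.10 for AAKO mice (adjusted p = 0.000374 and 0.00161). Gnmt was called higher and Cbs and Mtr lower in fasted mice for AAKO (0.29, -0.31 and -0.59), and in CTRL the same comparisons gave 0.15, -0.22 and -0.20 and were not called. In AAKO, Cbs lost its call with quantile normalization (-0.20, adjusted p = 0.0792) and the authors' table (-0.16, adjusted p = 0.165), and in CTRL quantile normalization called it lower (-0.26, adjusted p = 0.0366). Probes 2 and 3 of Mtr gave -0.10 and 0.42 in AAKO and were not called, and in CTRL probe 2 was called lower (-0.46, adjusted p = 0.000543). Bhmt was not called on probe 1 (0.10 in CTRL and -0.07 in AAKO). Its probe 2 was called higher in fasted CTRL livers (1.18, adjusted p = 3.35e-09) and not called in AAKO (0.17). Its probe 3 was called higher in both (2.87 and 2.94, adjusted p = 2.17e-08 and 2.22e-09). The interaction with genotype was called on probe 2 (-1.01, adjusted p = 2.46e-05) and not on probes 1 and 3 (-0.16 and 0.07).

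**Figure D4:**
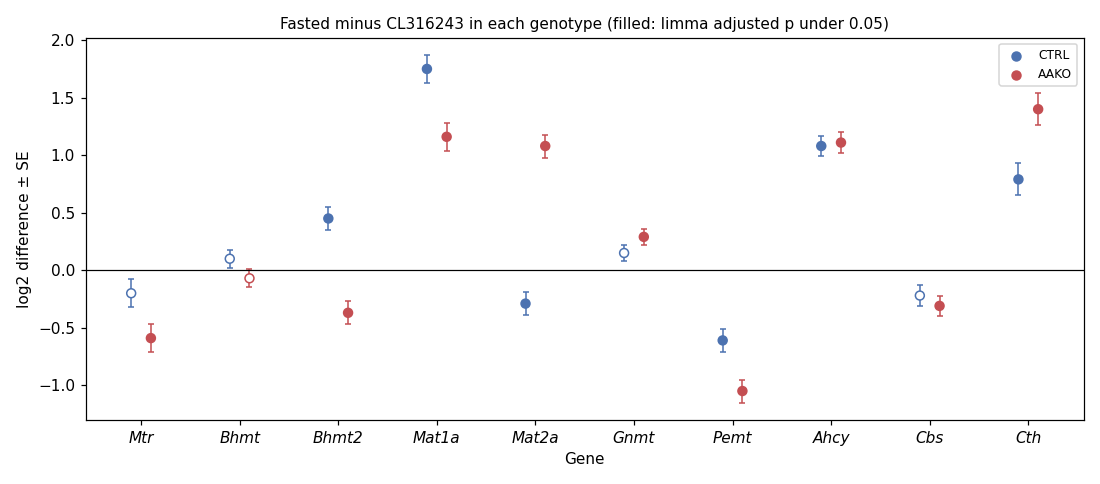
Log2 difference between fasted and CL316243-treated mice (vertical axis, ± SE of the fit) for each of the 10 genes in CTRL and AAKO, with filled points where the limma adjusted p is under 0.05. On these brightest probes Mat2a and Bhmt2 lie on opposite sides of 0 in the 2 genotypes, at -0.29 and 1.08 and at 0.45 and -0.37, while the third Mat2a probe, not plotted, gave 0.53 in CTRL. Probes 2 and 3 of Bhmt, not plotted, gave 1.18 and 2.87 in CTRL and 0.17 and 2.94 in AAKO.

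Genes that feed or drain the cycle were counted from 5 lists, which hold none of the 10 members. In fasted mice the genotype comparison, with 21.3% of all genes called higher and 28% lower in AAKO, called 5 of 21 tested genes of the folate one-carbon cycle higher and 14 lower (median -0.36), and 1 higher and 9 lower of 11 in choline and betaine metabolism (median -0.50). Of the folate genes, Amt, a subunit of the glycine cleavage system, was lower by -1.96 ± 0.14. Mthfd1l, of mitochondrial formate production, and Slc25a32, the mitochondrial folate carrier, were higher by 1.04 ± 0.35 and 0.96 ± 0.18 (adjusted p = 0.0135 and 3.4e-05). A second Slc25a32 probe gave 0.26 and was not called (adjusted p = 0.155).

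Of the choline and betaine genes, Chdh, which makes betaine aldehyde from choline, was 2.31-fold lower (-1.21 ± 0.12, adjusted p = 1.53e-09), with 3 further probes between -0.24 and -0.71. The choline transporter gene Slc44a1 was lower by -0.85 ± 0.13, and Chka, a choline kinase, was higher by 1.33 ± 0.19 (adjusted p = 3.46e-06 and 5.39e-07). Of 13 genes of SAM use and handling, 3 were called higher and 6 lower (median -0.23). Nnmt, which methylates nicotinamide, was higher by 0.98 ± 0.18, and Mat2b, the regulatory subunit of the Mat2a enzyme, by 0.39 ± 0.08 (adjusted p = 3.72e-05 and 0.000103). As3mt and Tpmt, which methylate arsenic and thiopurines, were lower by -0.86 ± 0.14 and -0.60 ± 0.10. Of 8 genes of methionine salvage and polyamine synthesis, 1 was higher, the spermidine synthase gene Srm (0.82 ± 0.14), and 5 were lower (median -0.38), among them Apip (-0.68 ± 0.08) and Mtap (-0.97 ± 0.11), whose second probe gave -0.04.

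Of 13 genes of cysteine, glutathione and taurine metabolism, 3 were called higher and 6 lower in AAKO fasted livers (median -0.25). Chac1, which degrades glutathione, was 14-fold higher (3.81 ± 0.50, adjusted p = 1.55e-07), with group means of 0.03 in CTRL fasted and 3.84 in AAKO fasted. Got1, the cytosolic aspartate aminotransferase, was 3.69-fold higher. Csad, of taurine synthesis, and Mpst, which moves sulfur from mercaptopyruvate, were lower by -1.72 ± 0.30 and -1.08 ± 0.10 (adjusted p = 1.23e-05 and 2.1e-10). In fed mice the genotype comparison called 0 genes of the 5 lists with limma.

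After CL316243 the genotype comparison called 1 of the 21 folate genes higher and 12 lower (median -0.31), beside 13.4% of all genes called higher and 11.3% lower, and 0 of the 11 choline and betaine genes higher and 6 lower (median -0.26). Mthfd2, a mitochondrial folate enzyme, was higher by 1.00 ± 0.24, and Slc19a1, the reduced folate carrier, was lower by -0.76 ± 0.14, though a second Slc19a1 probe gave 0.21. Aldh7a1, a betaine aldehyde dehydrogenase, and Chpt1, a choline phosphotransferase, were both lower by -0.49 (adjusted p = 0.0496 and 0.00749). Of the 13 SAM genes 2 were higher and 1 lower, a share near that of all genes: Nnmt (1.10 ± 0.18) and the adenosine kinase gene Adk (0.30 ± 0.08, second probe -0.18), and Gamt, of creatine synthesis (-0.50 ± 0.14). Of the 8 salvage and polyamine genes, Srm was again higher (0.98 ± 0.14) and 3 were lower, the largest falls being Adi1 (-0.41 ± 0.09) and Mtap (-0.40 ± 0.11). Of the 13 cysteine genes 2 were higher, Chac1 (1.41 ± 0.50, adjusted p = 0.0374) and Got1 (0.88 ± 0.19), and 5 were lower. Gclc, the catalytic subunit of the enzyme that starts glutathione synthesis, was the lowest of them at -1.68 ± 0.14, or 3.20-fold (adjusted p = 5.04e-10), and Mpst was lower by -0.35 ± 0.10.

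The pattern of 6 group means was set beside that of every other tested gene for the 6 members whose means spanned at least 1, as the root mean square log2 difference after centring, a description over 6 groups with no test. The closest genes were Proz (0.039) and Uqcc2 (0.042) for Pemt, and Gm2629 (0.055) and Ramp1 (0.069) for Ahcy. For Bhmt2 they were 4930473H19Rik (0.063) and Gm40826 (0.067), and for Mat2a Ypel1 (0.070) and the transcript ENSMUST00000199146 (0.070). Cth was nearest to the clone BY735452 (0.085) and Tent5b (0.095), and Mat1a to Spock2 (0.128) and the clone AK157290 (0.138).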

How the data were processed

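Spot intensity values in the scanner files came from the authors' use of Agilent Feature Extraction 10.10.1.1 (array design 074809), per the file headers, from 200 ng of total RNA per liver, per the labels. The processed signal is background-subtracted and detrended within the array, with no scaling between arrays. The authors also deposited a log2 table of 36898 probes and gave no normalization for it. Each of its 36 columns correlated best with the array of its own label (lowest r 0.99957), and columns of a group held identical sorted values. Its medians were 6.91, 6.93, 6.97, 7.01, 6.91 and 6.88 in CTRL fed, AAKO fed, CTRL fasted, AAKO fasted, CTRL CL316243 and AAKO CL316243. Its scale is therefore log2 and its direction that of the signal, no centring of genes was seen, and the rule that chose its probes is not given in the sources used here.

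From these files, the processed signal was put on a log2 scale and the log2 75th percentile of its array subtracted, over 59305 spots other than controls per array. Outlier spots were left out (2701 over all arrays, 0.127%), and 0 spots were saturated. Of 56605 probes, 32994 were named by accession with RefSeq's GRCm38.p6 table, used for names, and the rest kept the files' names. Each gene was represented by its brightest probe and tested if, in some group, 5 or more of 6 arrays had it well above background. One limma 3.58.1 fit (R 4.3.3) held 36 arrays, 6 group means and the wash batch, and p-values were two-sided with Benjamini-Hochberg adjustment over all genes of a comparison. The script was tested on simulated data. The number of arrays limits the precision.

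Members and gene lists were chosen with earlier results of these data known. Named genes are the 10 members, up to 2 called genes with the largest rise and 2 with the largest fall per list and comparison described, and the 2 genes of nearest pattern. One gene that this rule names is not reported here. Probe coordinates are mm9 as in the files, which do not give exon or intron. Promoter sequences are RefSeq's on GRCm38.p6. Alternatives were other background corrections, scalings, filters, probe rules, batch and slide terms, a replicate block, and leaving out each array. Replicate numbers did not pair the arrays. The labels number replicates and do not state cages or litters, so p-values measure the spread between these livers.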

Additional observations from a re-analysis of the deposited data

Results flagged for a closer look

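In 3 of 60 sets of 6 arrays (10 genes in 6 groups), 1 array lay far from its group by the size of its gap to the next array, and chance flags about 1 set in 20. Gnmt in AAKO fed replicate 6 was 7.91, with the nearest array at 8.10. Cth in AAKO fasted replicate 3 was 6.62, with the nearest at 7.03. Pemt in CTRL CL316243 replicate 4 was 6.78, with the nearest at 6.59.

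The genotype difference changed with the condition, by the interaction test of the limma fit, for 6 of the 10 genes. From fed to fasted mice the change was -1.10 for Bhmt2 (adjusted p = 2.83e-07), 0.27 for Gnmt (0.034), 0.67 for Mat2a (0.000401), 0.84 for Cth (0.00157) and -0.62 for Pemt (0.000609). From fed to CL316243-treated mice it was 0.53 for Mat1a (0.0324) and -0.70 for Mat2a (0.0011). The fasted minus the CL316243 genotype difference was -0.82 for Bhmt2 (2.65e-05), -0.59 for Mat1a (0.00609), 1.37 for Mat2a (2.31e-08), 0.61 for Cth (0.0214) and -0.44 for Pemt (0.0132).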

How the results depend on the processing

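Of 66 called differences of the members, 29 kept direction and call under each alternative run. Over all alternatives, 158 of 3168 values lost the call and 3 changed sign. Of the 66 calls, 0 were lost under normexp, 7 under quantile normalization and 8 with the authors' table, and none of these 3 settings changed a sign. Of the 54 differences not called, alternatives called 44 of 2592 values in the same direction and 1 in the opposite. The mean of all probes of a gene gave 0.03 for Mtr (fasted against fed, AAKO) and -0.28 for Bhmt (CL316243 against fed, AAKO), and a called 1.01 for Bhmt (fasted against CL316243, AAKO). Wash batch 2 alone gave 0.02 for the Bhmt2 genotype difference after CL316243. The count for the interaction with CL316243 went from 2 to 1 with quantile normalization, the authors' table, no dim filter, mean probes, only the groups compared, or wash batch 1 alone, and to 0 in wash batch 2 alone. Wash batch 1 alone called 4 members for fasting and 3 for CL316243 against feeding in CTRL, and 3 for the interaction with fasting. Wash batch 2 alone called 1 for the genotype after CL316243, 3 for fasting and 2 for CL316243 in CTRL, and 1 for CL316243 in AAKO. It called 2 for the interaction with fasting and 3 for the change of the genotype difference between fasted and CL316243-treated mice. These fits hold fewer arrays.

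Leaving out 1 array gave 0 to 0, 6 to 8 and 3 to 4 members for the genotype in fed, fasted and CL316243 mice. For fasting it gave 6 to 8 in CTRL and 7 to 8 in AAKO, and for CL316243 5 to 6 and 6 to 8. For fasted against CL316243 it gave 5 to 7 and 9 to 9, and for the 3 interactions 4 to 5, 1 to 2 and 4 to 6. Replicate numbers do not pair the arrays (14 of 90 same-numbered pairs correlated over 0.1, and 5 of 36 arrays correlated best with their own number). With a replicate block 64 of the 66 calls were kept, and those lost were Bhmt2 for genotype after CL316243 (-0.26, adjusted p = 0.0523) and Gnmt for the interaction with fasting (0.27, adjusted p = 0.0516). The second-brightest probe, an alternative added after seeing the data, lost 3 of the 66. The median over all genes shifted by -0.12 for fasted against fed and -0.15 for fasted against CL316243 in AAKO under normexp, against -0.09 and -0.08.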
